A study of Mus musculus with 29 samples.

Results

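The genes described here are the low- and high-affinity receptors for immunoglobulin G of the mouse and the signalling proteins directly behind them. They were listed by name as Fcgr1, Fcgr2b, Fcgr3, Fcgr4, the signalling chain Fcer1g of the activating receptors, the kinases Syk and Btk, and the phospholipase Plcg2. All 8 were found as single rows among the 36172 gene rows of the table. Each is described by its level in 29 libraries of ribosome-bound and total RNA from mouse brain.

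The study used translating ribosome affinity purification (TRAP) in NuTRAP mice, in which Cre recombination lets a cell make an EGFP-tagged ribosomal protein, so that an antibody to GFP pulls down the ribosomes of that cell type. Cx3cr1-NuTRAP mice (Cx3cr1-Cre/Ert2+; NuTRAP+, 6 mice) gave a positive fraction on the beads, a negative fraction left unbound and the input homogenate, and whole tissue was sequenced from 5 of them. Aldh1l1-NuTRAP mice (Aldh1l1-Cre/Ert2+; NuTRAP+, 3 mice) gave a positive and a negative fraction. All mice were about 3 months old and all received tamoxifen on 5 consecutive days, so no untreated or Cre-negative mouse was part of these comparisons. The Cre of the first line is driven from the Cx3cr1 locus, which is active in microglia and also in other macrophages and monocytes, and that of the second from Aldh1l1, which is active in astrocytes. In the Cx3cr1 line the paper collected brains only some weeks after tamoxifen, so that short-lived circulating monocytes would not carry the label. The TRAP fractions came from a single hemisphere of each mouse, and libraries with the same mouse number came from the same animal. Total counts ranged from 15486605 to 19831228 in the Cx3cr1-NuTRAP positive fractions. Over the other groups they ranged from 4260949, in 1 whole-tissue library of mouse 210, to 26857866. Cx3cr1, the driver gene, was at 274 ± 84.9 CPM (counts scaled to library total, SD, n = 6) in the Cx3cr1-NuTRAP positive fraction against 27.3 ± 1.27 in the input, and Aldh1l1 was at 540 ± 40.4 (SD, n = 3) in the Aldh1l1-NuTRAP positive fraction against 71.4 ± 13.3 in the negative fraction.

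Fc gamma receptors bind the constant part of immunoglobulin G and let a macrophage take up antibody-coated material. Fcgr1, Fcgr3 and Fcgr4 are activating receptors that pair with the common chain Fcer1g, whose cytoplasmic tail carries an activation motif built around a pair of tyrosines. Src family kinases phosphorylate these tyrosines, Syk docks on them, and the signal runs on through Btk and Plcg2 to calcium and lipid messengers. Fcgr2b is the inhibitory receptor and carries an inhibition motif around a single tyrosine, which recruits the phosphatase Inpp5d. In the brain these genes are known chiefly from microglia, and Plcg2, Syk and the Syk-coupled receptor Trem2 belong to the pathways studied in microglial responses to neurodegeneration.

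The coding sequences of these motifs are shown because they are what separates the activating chain from the inhibitory receptor. They were read from the longest open reading frame of GENCODE transcripts of GRCm38, with the tyrosine codons in capitals. The Fcer1g stretch covers codons 65 to 79 of 86, and the Fcgr2b stretch codons 317 to 322 of 340.
Fcer1g: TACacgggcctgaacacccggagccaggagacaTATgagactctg
Fcgr2b: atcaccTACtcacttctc

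Fcgr2b, Fcgr4, Fcgr3 and Fcer1g lie close together on chromosome 1 of GRCm38 (mm10), at 170960559 to 170976071, 171018926 to 171029761, 171051169 to 171059403 and 171229572 to 171234349. Fcgr1 lies on chromosome 3, Plcg2 on chromosome 8, Syk on chromosome 13 and Btk on chromosome X. Fcgr2b and Fcgr3 are near-copies over part of their length, and a read from the shared part cannot be assigned by its own sequence alone. Their longest identical stretch was 129 bases, inside the coding sequence of both.
Fcgr2b and Fcgr3: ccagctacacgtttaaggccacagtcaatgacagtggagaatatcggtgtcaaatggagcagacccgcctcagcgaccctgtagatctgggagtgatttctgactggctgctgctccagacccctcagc

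Of all 42-base windows, the read length left after the trimming in the methods, 190 of 1306 in Fcgr3 (14.5%) also occurred in Fcgr2b. In the Fcgr2b transcript 454 of 3503 windows occurred in another gene, 190 of them in Fcgr3 and 264 in other genes. No window of the other 6 members occurred in another gene. How reads of this kind were shared out is not given in the sources used here, so the split between Fcgr2b and Fcgr3 is uncertain. These windows are single reads of paired-end libraries, where a mate may lie outside the shared part, so they do not measure the extent. Fcgr2b also shared 155 exon bases with Gm38204 on the opposite strand, and the alignment was directional.

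The promoters of 3 receptor genes are printed because they hold the letters searched for. The window of the other receptor, Fcgr2b, holds none. Each window runs from 250 bases before to 50 bases after a RefSeq transcription start (GRCm38.p6) and is written in the direction of the gene. Capitals mark the letters GAGGAA or, on the other strand, TTCCTC, the core recognised by the myeloid factor PU.1. No other motif was searched. The windows are chr3:96293920-96294219 (minus strand) for Fcgr1, chr1:171059354-171059653 (minus strand) for Fcgr3 and chr1:171018676-171018975 (plus strand) for Fcgr4.
Fcgr1: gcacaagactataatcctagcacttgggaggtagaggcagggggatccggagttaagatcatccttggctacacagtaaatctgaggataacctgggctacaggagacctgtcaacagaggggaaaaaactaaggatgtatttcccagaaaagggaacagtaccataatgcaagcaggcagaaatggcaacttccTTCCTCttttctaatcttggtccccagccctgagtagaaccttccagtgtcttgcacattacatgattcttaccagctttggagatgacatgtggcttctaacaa
Fcgr3: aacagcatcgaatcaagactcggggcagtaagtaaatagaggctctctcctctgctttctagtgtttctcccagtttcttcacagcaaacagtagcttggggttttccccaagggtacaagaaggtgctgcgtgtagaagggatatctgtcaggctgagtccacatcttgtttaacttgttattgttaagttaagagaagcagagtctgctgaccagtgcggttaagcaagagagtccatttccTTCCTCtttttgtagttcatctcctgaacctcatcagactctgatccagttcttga
Fcgr4: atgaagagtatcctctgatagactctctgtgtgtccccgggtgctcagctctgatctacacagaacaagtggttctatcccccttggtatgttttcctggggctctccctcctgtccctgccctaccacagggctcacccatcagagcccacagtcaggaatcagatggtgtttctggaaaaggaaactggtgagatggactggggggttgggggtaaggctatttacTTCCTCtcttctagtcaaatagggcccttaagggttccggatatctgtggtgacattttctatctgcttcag

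The letters began 55 bases before the start of Fcgr1, 6 before the printed start of Fcgr3 and 22 before that of Fcgr4. Fcgr3 has another start nearby, where the same letters began 15 bases before it, so they are counted in both Fcgr3 windows. Of the 10 windows of the members, 6 held the letters, in 5 of the 8 genes (Fcgr1, Fcgr3, Fcgr4, Btk and 1 of 2 starts of Syk). The windows of Fcer1g, Fcgr2b and Plcg2 did not. Of all 32851 promoter windows of the same length, 28.3% held them, and a match describes letters, not binding.

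All 8 members were higher in the Cx3cr1-NuTRAP positive fraction than in the input, by between 5.86-fold (Plcg2) and 14.5-fold (Fcgr3) in the fit for the 6 that passed the count filter in both groups. Fcgr4 and Btk passed it only through the positive fraction, where they were high, here and against the negative fraction. This comparison asks which transcripts the tagged microglial ribosomes carried above the homogenate they were pulled from. Of all 13838 genes tested, 23.3% were called higher and 25.6% lower at an adjusted p of 0.05. The 8 members were higher in the positive fraction in every one of the 6 mice. Among all genes tested, by log2 fold change, Fcgr3 was 21st, Fcer1g 24th, Fcgr1 58th, Fcgr2b 163rd, Syk 262nd and Plcg2 264th.

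Fcgr3, a low-affinity activating receptor, had the highest level per kb of exon among the receptors. In the Cx3cr1-NuTRAP positive fraction its lowest, median and highest values were 93.3, 138 and 277 CPM, and in the input 9.19, 10.6 and 12.2 CPM. The negative fraction ranged from 8.52 to 11.4 CPM around a median of 10.2. The whole-tissue libraries held 9.47, 7.63, 11.6, 22.0 and 10.2 CPM in mice 192, 194, 209, 210 and 277. No positive fraction overlapped any other library, and the single high whole-tissue value belonged to the library with the fewest counts. The log2 fold change over input was 3.86 ± 0.25 (SE, adjusted p = 8.37e-08).

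Fcer1g, the chain shared by the activating receptors, had nearly the same fold change as Fcgr3. Its lowest, median and highest values were 54.4, 79.7 and 142 CPM in the positive fraction, 5.09, 6.26 and 6.61 CPM in the input and 5.72, 6.01 and 7.24 CPM in the negative fraction. The whole-tissue libraries held 4.67, 6.06, 6.19, 8.99 and 5.09 CPM in the same order of mice. The positive fractions were again apart from all others, with a log2 fold change over input of 3.84 ± 0.21 (SE, adjusted p = 2.29e-08).

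Fcgr1, the high-affinity receptor, was at 28.8, 39.5 and 76.0 CPM (lowest, median, highest) in the positive fraction against 3.24, 3.70 and 4.07 CPM in the input. The negative fraction ranged from 3.33 to 4.85 CPM and whole tissue from 2.77 to 5.16 CPM. The ranges did not overlap, and the log2 fold change over input was 3.59 ± 0.23 (SE, adjusted p = 4.65e-08).

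Fcgr2b, the inhibitory receptor, showed the smallest fold change over input among the receptors. It was at 21.8, 26.8 and 47.4 CPM (lowest, median, highest) in the positive fraction and at 2.47, 3.53 and 4.52 CPM in the input. The negative fraction ranged from 2.26 to 3.80 CPM and whole tissue from 1.63 to 3.66 CPM. The groups were apart here too, with a log2 fold change over input of 3.07 ± 0.22 (SE, adjusted p = 9.13e-08).

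Fcgr4, an activating receptor best known from monocytes, neutrophils and macrophages, had the lowest level per kb of the 8 genes. The 6 positive fractions held 1.68, 2.27 and 3.05 CPM (lowest, median, highest), while 3 of the 6 inputs held 0 counts and the highest input 8 counts. It entered the test only through the positive fraction, where every library had more than 20 counts, so its call carries no more than its levels do. Summed over mice, 250 counts in the positive fraction stood against 17 in the input, a ratio of CPM of 19.3 with an exact interval of 11.8 to 33.6. Such intervals cover counting error only. Among the receptors, Fcgr4 was also the one not highest in mouse 194.

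Syk, the kinase that docks on the phosphorylated chain, was at 20.4, 25.6 and 46.2 CPM (lowest, median, highest) in the positive fraction. The input held 3.43, 4.75 and 6.07 CPM, the negative fraction ranged from 3.42 to 5.29 CPM and whole tissue from 3.74 to 4.49 CPM. Its positive fractions were all above the rest, by a log2 fold change over input of 2.56 ± 0.23 (SE, adjusted p = 9.67e-07).

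Plcg2, the phospholipase activated behind Syk and Btk, was at 24.6, 28.8 and 45.9 CPM (lowest, median, highest) in the positive fraction and at 4.20, 5.52 and 6.35 CPM in the input. The negative fraction ranged from 4.37 to 5.53 CPM. In whole tissue it was at 6.43, 6.11, 6.78, 3.25 and 5.57 CPM in mice 192, 194, 209, 210 and 277, so the library of mouse 210 that was highest for Fcgr3 was lowest for Plcg2. The log2 fold change over input was 2.55 ± 0.16 (SE, adjusted p = 4.06e-08).

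Btk, the Tec family kinase that acts on Plcg2, rose more than either. It was at 10.7, 13.6 and 24.0 CPM (lowest, median, highest) in the positive fraction and at 0.715, 1.15 and 1.38 CPM in the input. The negative fraction ranged from 0.640 to 1.71 CPM and whole tissue from 0.999 to 2.22 CPM. The log2 fold change over input was 3.75 ± 0.22 (SE, adjusted p = 2.73e-08). Like Fcgr4, Btk was tested through its values in the positive fraction.

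**Figure D1:**
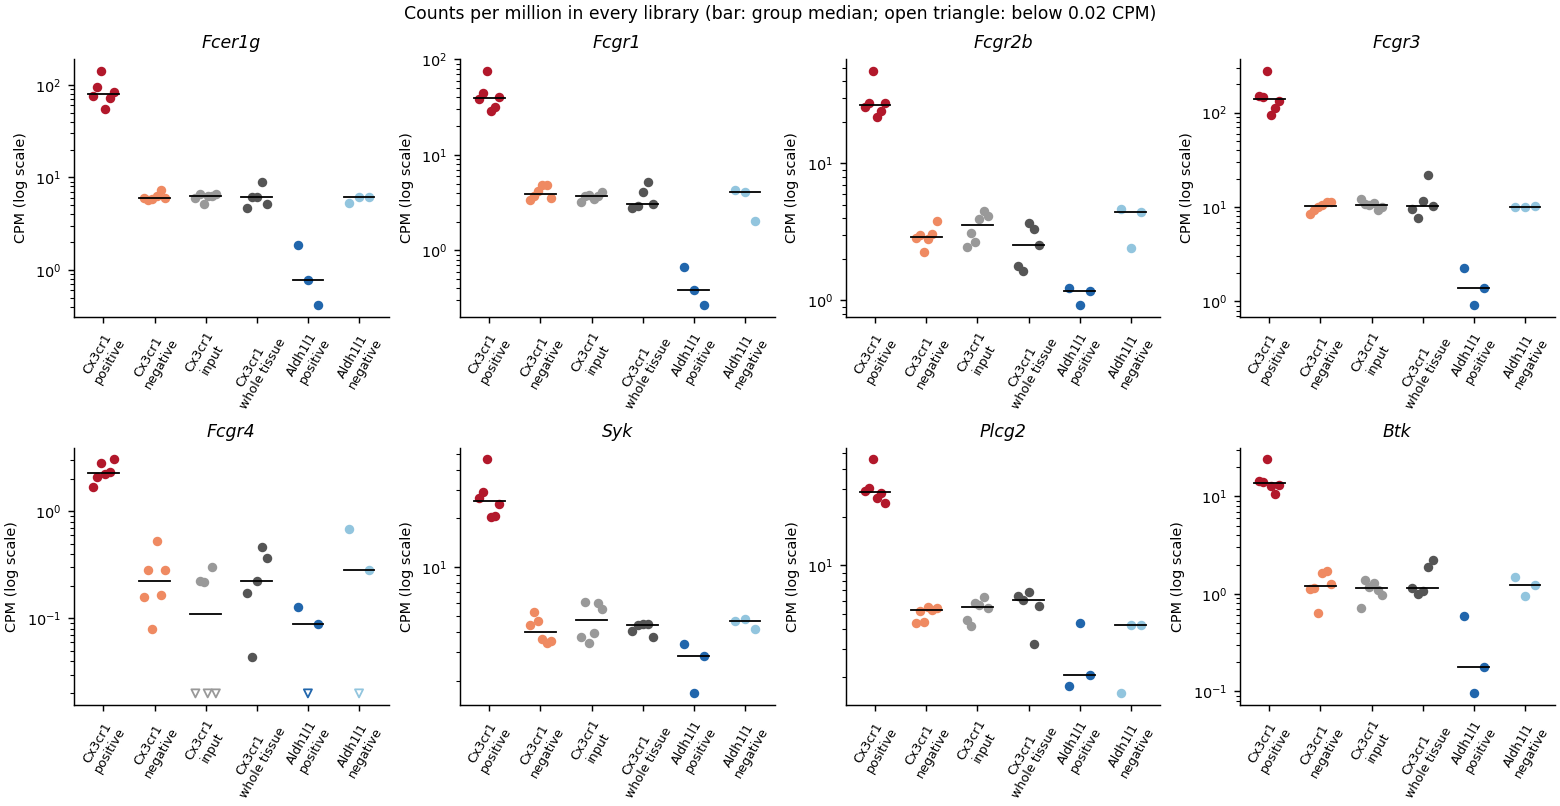
CPM on a log axis for each of the 8 genes in every library, by line and fraction, with a bar at the group median and an open triangle for values below 0.02 CPM. For every gene the 6 Cx3cr1-NuTRAP positive fractions sit above all other libraries, and the 3 Aldh1l1-NuTRAP positive fractions are lowest for Fcer1g, Fcgr1, Fcgr2b, Fcgr3, Syk and Btk.

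The same positive fractions were set against the negative fraction and against whole tissue, so these comparisons share 6 libraries with the one above and are not independent of it. Against the negative fraction all 8 members were higher, where 12.8% of 13776 genes were. Their log2 fold changes ran from 2.64 (Plcg2) to 3.93 (Fcgr3). Fcgr4 there had a smaller fold change than Fcgr2b, as it did against whole tissue. Against whole tissue all 8 were higher too, where 27.5% of 13470 genes were, from 2.42 (Plcg2) to 3.91 (Fcer1g), but 5 of them (Fcgr2b, Fcgr4, Syk, Plcg2 and Btk) passed the filter only through the positive fraction. 

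None of the 6 members that could be tested passed the test between the negative fraction and the input, or between the input and whole tissue. With edgeR's quasi-likelihood test 0 of 6 passed in either comparison, 0 of 6 had an unadjusted p below 0.05, and DESeq2 called 0 of 6 as well. Among all genes, 1.41% were higher and 4.70% lower in the negative fraction than in the input, and 16.3% were higher and 14.2% lower in the input than in whole tissue. The count of genes called between negative fraction and input, 840, was unstable: it was 5115 with the mouse as a replicate block and between 0 and 3815 without 1 mouse, while no member was called in any of these. The intervals of the log2 difference between negative fraction and input were narrowest for Fcgr3, from -0.24 to 0.14, and widest for Syk, from -0.58 to 0.17. Between input and whole tissue Fcgr2b differed by 0.49 (95% interval -0.03 to 1.01, adjusted p = 0.143), with the input higher in 5 of 5 mice. Fcgr2b, Syk and Plcg2 passed the filter in that comparison only through the input, so their direction there is not read further. Fcgr4 and Btk were not tested in these comparisons because no group had more than 20 counts in every library.

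In the Aldh1l1-NuTRAP mice 3 receptors and the chain Fcer1g were lower in the positive fraction, while the kinase Syk and Plcg2 were not called. Fcer1g, Fcgr1, Fcgr2b and Fcgr3 were lower in the positive than in the negative fraction, 4 of the 6 members tested, where 24.8% of 13319 genes were lower and 26.8% higher. This comparison asks what the tagged astrocyte ribosomes carried relative to the RNA left behind. All 4 passed the count filter only through the negative fraction, where they were high, so their calls carry little beyond the levels, though all 4 were also called with no count filter. Syk passed it in both fractions and Plcg2 only through the positive one, so called and uncalled members also differ in how they entered the test. Fcgr3 was at 2.24, 0.920 and 1.37 CPM in the positive fractions of mice 290, 293 and 294 and at 10.0, 10.1 and 10.3 CPM in their negative fractions. Fcer1g was at 1.86, 0.786 and 0.419 CPM against 5.33, 6.07 and 6.17 CPM. Fcgr1 was at 0.672, 0.381 and 0.269 CPM against 4.33, 4.04 and 2.01 CPM. For these 3 genes every positive fraction was below every negative fraction, by log2 fold changes of -2.44 ± 0.35, -2.28 ± 0.51 and -2.68 ± 0.50 (SE, adjusted p = 0.00115, 0.00797 and 0.00364).

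Fcgr2b, at 1.22, 0.927 and 1.17 CPM against 4.63, 2.42 and 4.41 CPM, had a log2 fold change of -1.47 ± 0.37 (SE, adjusted p = 0.0126). With 3 mice these calls were not all firm. Fcgr3 passed whichever mouse was left out. Without mouse 293, Fcer1g (-2.08, adjusted p = 0.0838) and Fcgr1 (-2.45, adjusted p = 0.0547) were no longer called, and without mouse 294, Fcer1g (-1.81, adjusted p = 0.0603) and Fcgr2b (-1.39, adjusted p = 0.119) were not, so 2 of 6 members passed in each case.

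Syk was at 3.36, 1.67 and 2.82 CPM in the Aldh1l1-NuTRAP positive fractions and at 4.67, 4.83 and 4.14 CPM in the negative fractions. Its groups did not overlap in CPM, but the fit gave -0.46 ± 0.32 (SE, 95% interval -1.21 to 0.29, adjusted p = 0.264). Plcg2 was at 1.76, 4.38 and 2.06 CPM against 1.59, 4.23 and 4.26 CPM, higher in the positive fraction in 2 of 3 mice. Its fitted log2 fold change was 0.04 ± 0.48 (SE, 95% interval -1.08 to 1.15, adjusted p = 0.954). Scaling matters here, because with library totals alone the median of all genes moved from 0.04 to -0.31, and Syk and Plcg2 then had values of -0.81 and -0.32 (adjusted p = 0.0622 and 0.607). Btk was at 0.588, 0.0952 and 0.179 CPM against 1.48, 0.955 and 1.23 CPM and was too low to be tested with all 3 mice. Without mouse 290 it passed the count filter, through the negative fraction alone, and was called (log2 -2.62, adjusted p = 0.00379), while with no count filter and all mice it was not (-1.80, adjusted p = 0.0804). Fcgr4 held 2, 0 and 2 counts (rounded) in the positive fractions and 6, 0 and 6 in the negative fractions, so no fold change is given.

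**Figure D2:**
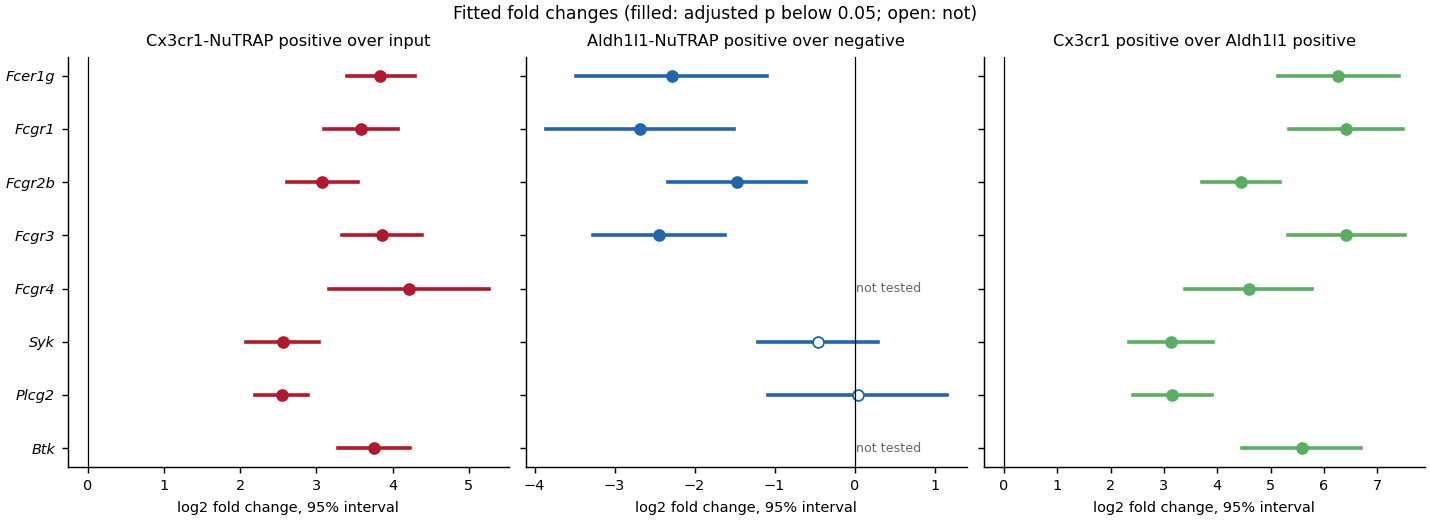
Log2 fold changes with 95% intervals for the 8 genes in 3 comparisons, filled where the adjusted p was below 0.05. Syk and Plcg2 have the smallest values over input (2.56 and 2.55) and their intervals in the Aldh1l1-NuTRAP mice span 0.

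Between the positive fractions of both lines all 8 members were higher in the Cx3cr1-NuTRAP mice, where 33.1% of 13676 genes were. Fcgr3, Fcgr1 and Fcer1g differed by 6.42 ± 0.50, 6.41 ± 0.48 and 6.27 ± 0.51 on the log2 scale (SE), and Btk by 5.58 ± 0.51. These 4, Fcgr2b and Fcgr4 passed the count filter only through the Cx3cr1-NuTRAP libraries, where they were high, on 13 to 76 counts in all in the other line (4 for Fcgr4), so the sizes are loose. Fcgr2b differed by 4.45 ± 0.33, and Plcg2 and Syk by 3.16 ± 0.34 and 3.14 ± 0.36. Fcgr4 had 250 counts in 6 libraries of one line and 4 in 3 of the other, a ratio of CPM of 32.6 with an exact interval of 12.6 to 121. The ratio of positive to negative fraction also differed between the lines for all 8, where it was higher in the Cx3cr1-NuTRAP mice for 29.9% of 13983 genes. Fcgr4 and Btk entered this fit only through the Cx3cr1-NuTRAP positive fraction. The difference was 6.46 ± 0.45 for Fcgr3 and 2.67 ± 0.41 for Plcg2 on the log2 scale (SE). These comparisons also use the 6 positive fractions above. With library totals as the scale the median of all genes moved from 0.08 to 0.39 between the positive fractions, a shift far below the members' values.

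Per kilobase of exon, Fcer1g and Fcgr3 stood apart from the other members in the Cx3cr1-NuTRAP positive fraction. Levels of different genes are compared here as CPM per kb of merged exons. Fcer1g was at 116 ± 40.1 and Fcgr3 at 113 ± 48.3 (SD, n = 6), and Fcer1g was the higher in 4 of 6 mice, so their order did not hold in every mouse. Fcgr1 followed at 16.8 ± 6.56, with no overlap with Fcgr3. Fcgr2b at 7.64 ± 2.42 and Plcg2 at 7.17 ± 1.78 changed places between mice. Btk at 5.50 ± 1.74 was above Syk at 4.64 ± 1.58 in 6 of 6 mice although their ranges overlapped, and Fcgr4 was last at 1.88 ± 0.402 CPM per kb. Fcer1g was 0.906 ± 0.0912 times (SD, n = 6) the summed level of the 3 receptors that use it, and 0.879 ± 0.108 times in the input.

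Fcgr3 made up most of the receptor transcripts in every library. Of the summed level per kb of the 4 receptors in the Cx3cr1-NuTRAP positive fraction, Fcgr3 was 80.7% ± 1.59, Fcgr1 12.2% ± 0.685, Fcgr2b 5.67% ± 0.622 and Fcgr4 1.48% ± 0.502 (SD, n = 6). In the input Fcgr3 was 76.3% ± 4.07 and Fcgr2b 8.95% ± 2.44. The level of the activating receptors was thus 16.8 ± 1.94 times that of Fcgr2b in the positive fraction and 10.9 ± 3.37 times in the input, with ranges of 14.3 to 19.1 and 7.15 to 15.9 that overlapped between groups. Within mice, the positive fraction had a lower share of Fcgr2b than the input in 6 of 6 mice, than the negative fraction in 6 of 6 and than whole tissue in 3 of 5. In Aldh1l1-NuTRAP mice it was higher in the positive than in the negative fraction in 3 of 3. Whole tissue, from 10.8 to 21.7 (n = 5), spanned the range of the positive fraction, and both negative fractions were at 12.2 ± 2.08 (Cx3cr1-NuTRAP, n = 6) and 9.90 ± 3.81 (Aldh1l1-NuTRAP, n = 3). In the Aldh1l1-NuTRAP positive fraction the same ratio was 4.55 ± 1.56 (SD, n = 3), from 3.43 to 6.33, and Fcgr2b took 18.9% ± 4.67. These shares rest on the uncertain split between Fcgr2b and Fcgr3, and in the Aldh1l1-NuTRAP positive fractions on 59 counts of Fcgr2b in all.

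**Figure D3:**
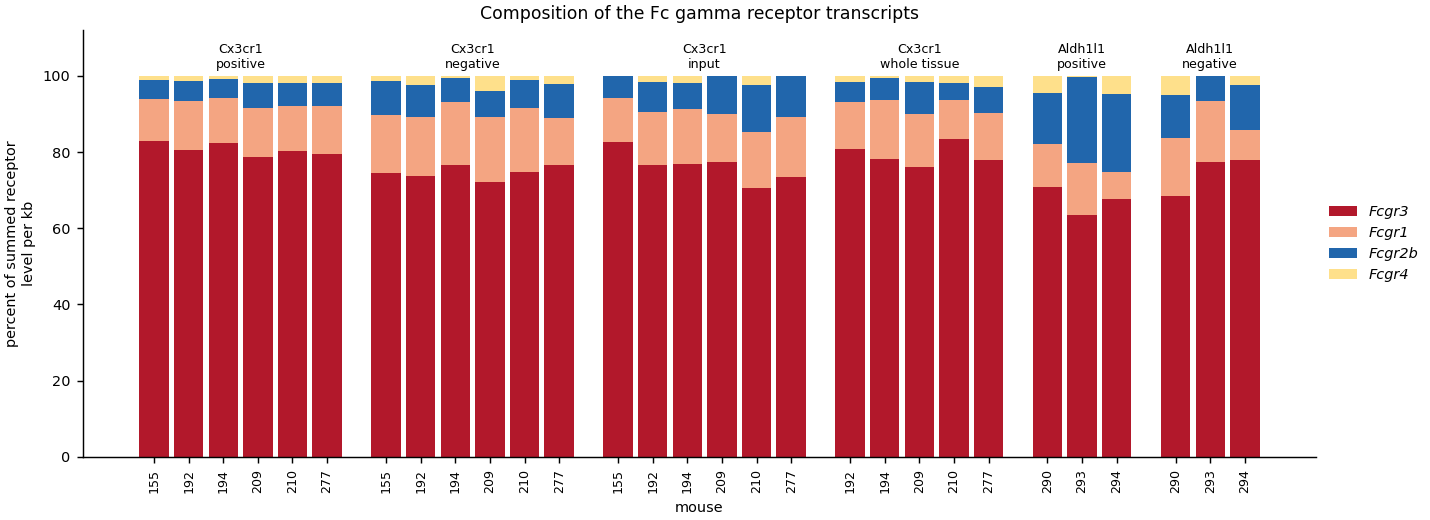
Each bar is 1 library, labelled by mouse, and shows each receptor gene as a percentage of the summed level per kb of the 4. Fcgr3 ranges from 78.8% to 82.8% in the Cx3cr1-NuTRAP positive fractions, and the Fcgr2b share is widest in the Aldh1l1-NuTRAP positive fractions, from 13.6% to 22.6%.

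The members were then set against other microglial genes in the same mouse. The reference was the study's list of 239 microglia genes drawn from published cell-sorting data, of which 214 remained once the members and other genes of the pathway were left out. Values are the log2 ratio of positive fraction to input minus the median of the list, described with no test. The list itself had a ratio of 2.44 ± 0.39 (SD, n = 6 mice). Fcer1g was 1.31 ± 0.21, Fcgr3 1.30 ± 0.22, Btk 1.17 ± 0.31 and Fcgr1 1.02 ± 0.10 above it, each in 6 of 6 mice. Fcgr2b was 0.58 ± 0.29 above it and Fcgr4 1.27 ± 1.15, in 6 of 6 mice as well. Syk, at 0.06 ± 0.40, was above it in 3 mice and below it in 3, and Plcg2, at 0.06 ± 0.20, was above it in 4 and below it in 2. With the negative fraction in place of the input, Syk (0.15 ± 0.26) and Plcg2 (0.03 ± 0.18) were above the list in 4 of 6 mice each. With whole tissue, Syk (0.18 ± 0.11) was above it in 5 of 5 and Plcg2 (-0.01 ± 0.63) in 1 of 5. The Fcgr4 value rests on inputs with 0 to 8 counts, and over the negative fraction Fcgr4 was 0.37 ± 0.47 above the list, in 4 of 6 mice. Both Fcgr4 values depend on the prior count. With 0.5 in place of 2 they were 2.35 ± 2.03 over input and 0.72 ± 0.63 over the negative fraction.

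Against 10 stricter microglia markers (among them Cx3cr1, Csf1r, P2ry12 and Tmem119), whose median ratio was 3.33, the picture shifted down by nearly 1 log2 unit. Fcer1g (0.42 ± 0.12), Fcgr3 (0.42 ± 0.14) and Fcgr1 (0.14 ± 0.09) remained above in 6 of 6 mice. Btk (0.28 ± 0.37) was above in 5 and Fcgr4 (0.38 ± 1.23) in 3. Fcgr2b (-0.31 ± 0.27) was above in 1 mouse, and Syk (-0.83 ± 0.38) and Plcg2 (-0.83 ± 0.26) in 0 of 6 (SD over mice). With the negative fraction in place of the input, Fcer1g and Fcgr3 were above in 6 of 6 mice, Fcgr1 (-0.08 ± 0.32) in 2 and Btk (0.08 ± 0.49) in 2. With whole tissue in its place, Fcer1g (0.41 ± 0.21) was above in 5 of 5 mice, Fcgr3 (0.24 ± 0.47) and Fcgr1 (0.16 ± 0.27) in only 3, and Btk (-0.10 ± 0.55) in 2. Which members stood above these markers in every mouse thus depended on the reference, and of the 8 Fcer1g did so with all 3.

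In the Aldh1l1-NuTRAP mice, where the list's ratio of positive to negative fraction was -1.48 ± 0.05, Syk (0.66 ± 0.52) and Plcg2 (1.21 ± 0.68) were above the list in 3 of 3 mice, though Syk in only 2 of 3 when the list was summarised by its mean (0.35 ± 0.50). The 192 list genes used here could pass the count filter through the negative fraction alone, a filter not put on the members. How far this lowers the list's ratio was not tested. Fcgr1 (-1.23 ± 0.29) and Fcgr3 (-1.27 ± 0.58) were below it in 3 of 3. Fcer1g (-1.14 ± 1.08) was below it in mice 293 and 294 (-1.26 and -2.15) and level with it in mouse 290 (-0.00). The other members were mixed: Fcgr2b (-0.18 ± 0.36) and Btk (-0.48 ± 0.65) were above it in 1 mouse and Fcgr4 (0.57 ± 0.97) in 2. Against the 10 markers Syk (1.53 ± 0.27), Plcg2 (2.09 ± 0.77), Fcgr2b (0.70 ± 0.62) and Fcgr4 (1.45 ± 1.23) were above in 3 of 3 mice and Btk (0.40 ± 0.48) in 2. Fcgr1 (-0.35 ± 0.08) was below in 3 of 3, and Fcgr3 (-0.39 ± 0.35) and Fcer1g (-0.26 ± 1.01) were above in 1 mouse. The Fcgr4 and Btk values rest on 4 and 13 counts in the positive fractions (SD over mice, n = 3).

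**Figure D4:**
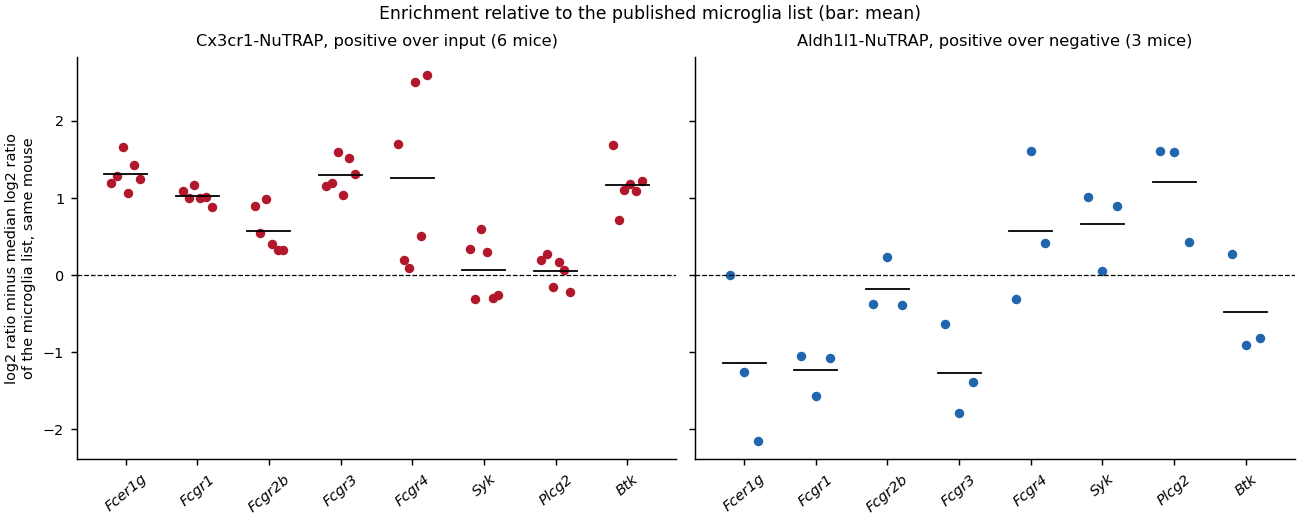
Each point is 1 mouse and shows a gene's log2 ratio minus the median log2 ratio of the microglia list in that mouse, for positive over input in Cx3cr1-NuTRAP (left) and positive over negative in Aldh1l1-NuTRAP (right), with bars at the mean. Syk and Plcg2 lie around 0 on the left, at 0.06 each, and above 0 on the right, at 0.66 and 1.21.

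Expressed per 1000 CPM of the summed 10 markers, Syk was at 8.18 ± 0.443 in the Cx3cr1-NuTRAP positive fraction, 13.2 ± 3.05 in the input (SD, n = 6) and 22.6 ± 6.94 in the Aldh1l1-NuTRAP positive fraction (SD, n = 3). Plcg2 was at 9.28 ± 1.44, 14.8 ± 2.52 and 24.7 ± 14.5. In the Aldh1l1-NuTRAP negative fraction Syk was at 12.2 ± 2.32 and Plcg2 at 9.69 ± 5.64 (SD, n = 3), the latter close to its value in the Cx3cr1-NuTRAP positive fraction. Fcer1g was, in the first 3 groups in the same order, at 25.4 ± 1.21, 17.0 ± 1.07 and 8.13 ± 4.29, and Fcgr3 at 43.5 ± 4.29, 29.4 ± 3.07 and 12.7 ± 3.68. In bulk RNA of this kind, fewer cells of a type and less RNA per cell cannot be told apart.

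Mouse 194 had the highest level of 7 of the 8 members in the Cx3cr1-NuTRAP positive fraction. Its summed level of the 10 microglia markers was also the highest, at 5536 CPM against 2315 to 3607 CPM in the other 5 mice. Per 1000 CPM of these markers the spread between mice shrank from a coefficient of variation of 34.4% to 4.78% for Fcer1g, from 39.1% to 5.09% for Fcgr1, from 31.7% to 7.04% for Fcgr2b, from 42.9% to 9.86% for Fcgr3 and from 34.1% to 5.41% for Syk. For Plcg2 it went from 24.8% to 15.5% and for Btk from 31.6% to 13.8%. Fcgr4 was the exception, at 21.4% by CPM and 29.2% per markers.

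**Figure D5:**
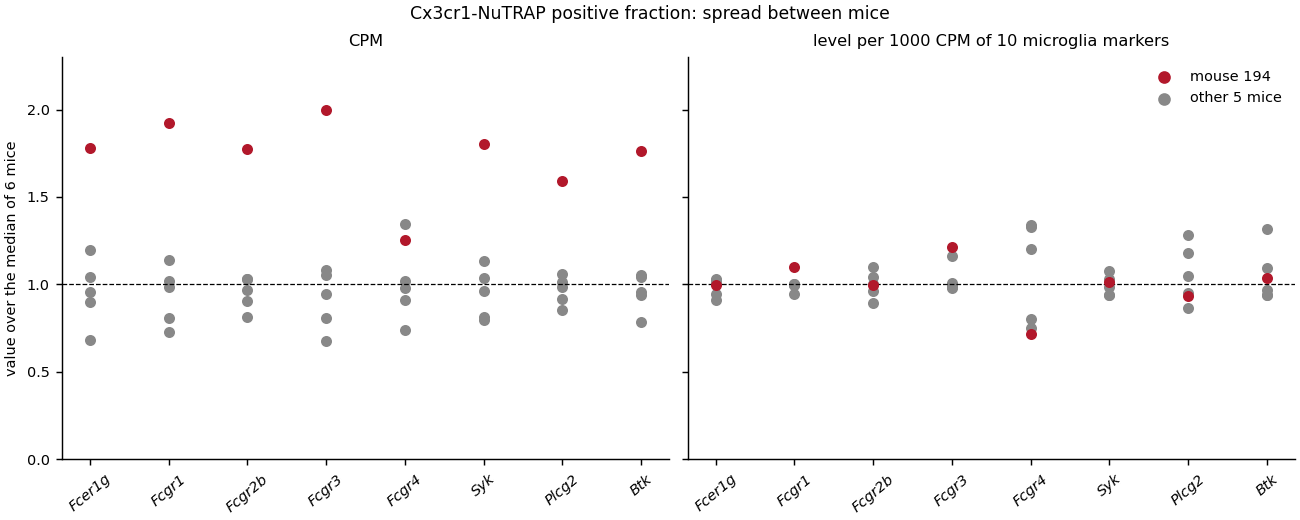
Level of each gene in the 6 Cx3cr1-NuTRAP positive fractions over the median of the mice, as CPM (left) and per 1000 CPM of 10 microglia markers (right), with mouse 194 in red. Mouse 194 is highest for 7 genes on the left, while on the right it is highest for Fcgr1 and Fcgr3 and lies among or below the other mice for the rest.

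The genes with the most similar pattern were found over all 29 libraries. By Pearson's r of log2 CPM, described with no test since libraries share mice and the Cx3cr1-NuTRAP positive fraction sets most of the range, Fcer1g was nearest to Selplg (0.995), Csf1r (0.993) and Inpp5d (0.992). Fcgr1 was nearest to C1qb, C1qc and Csf1r (each 0.990), and Fcgr3 to C1qc (0.995), C1qb (0.994) and Csf1r (0.993). Fcgr2b was nearest to Cyth4 (0.983), Unc93b1 (0.976) and Olfml3 (0.976). Syk shared Cyth4 (0.974) with it, ahead of Tgfb1 (0.969), and Plcg2 was nearest to Dock8 (0.968), Pik3ap1 (0.961) and Tgfbr1 (0.960). Btk was nearest to Cd53 (0.981), C1qc (0.980) and Arhgap30 (0.979), and Fcgr4 to Il4ra (0.891), Aif1 (0.889) and Lyl1 (0.888). Outside the Cx3cr1-NuTRAP positive fraction, over 23 libraries, r between pairs of members without Fcgr4 ran from 0.17 (Syk and Plcg2) to 0.96 (Fcer1g and Fcgr1), on counts that were low.

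Other cells that carry Fc receptors were checked by their markers in the same libraries. Border-associated macrophages, which the Cx3cr1 driver also labels, moved with the members. All 8 of their markers were higher over input, where 23.3% of all genes tested were. Only 4 of the 8 could be tested between negative fraction and input. The rest therefore passed the filter over input only through the positive fraction, so their calls carry little beyond their levels. The summed level of the 8 was 79.5 to 257 CPM in the Cx3cr1-NuTRAP positive fraction against 12.6 to 28.6 CPM in the input, with mouse 194 the highest. None of the 8 was at 0 in all libraries of either group. The part of these cells in the members' levels was not tested. The 7 monocyte markers summed to 122 to 200 CPM in the positive fraction and 153 to 199 CPM in the input, 8 neutrophil markers to 0.760 to 3.73 and 1.11 to 4.41 CPM with Ly6g at 0 throughout, and 8 lymphocyte markers of natural killer and T cells had median sums of 2.48 and 1.76 CPM with Trac at 0. Only 2 of the 7 monocyte markers passed the count filter over input, so their sums say little about that list as a whole. The 8 B lymphocyte markers, whose cells use Btk, Syk, Plcg2 and Fcgr2b, summed to 2.31 to 5.73 CPM in the positive fraction and 1.41 to 2.01 CPM in the input. The 7 mast cell markers, whose cells use Fcer1g, summed to 5.24 to 8.46 and 1.99 to 5.37 CPM, and Ms4a2 was at 0 in every library. Only 1 of the 7 could be tested over input, and it was not called (log2 0.23). In the Aldh1l1-NuTRAP mice 1 of the 7 could be tested and was higher in the positive fraction (log2 1.35). In the Aldh1l1-NuTRAP mice the 10 microglia markers summed to 96.5 to 145 CPM in the positive fraction and 309 to 489 CPM in the negative fraction, and the border-associated macrophage markers to 3.07 to 4.54 and 12.4 to 17.3 CPM. The part of leftover microglial RNA in the Syk and Plcg2 levels of the Aldh1l1-NuTRAP positive fraction was not tested. Of markers of other brain cells, 8 astrocyte markers summed to 2220 to 3337 CPM in Cx3cr1-NuTRAP positive fractions against 3583 to 4079 CPM in the input, 8 oligodendrocyte markers to 846 to 2027 and 2949 to 3358 CPM, and 8 neuron markers to 5455 to 8415 and 7543 to 7897 CPM. Endothelial markers summed to 103 to 213 and 107 to 127 CPM, and 4 erythrocyte genes had median sums of 203 and 246 CPM.

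Of 75 further genes of the Fc receptor pathway, 56 could be tested over input, and 36 were higher and 8 lower in the Cx3cr1-NuTRAP positive fraction, beside 23.3% and 25.6% of all genes tested. Their median log2 fold change was 0.78 against -0.00 over all genes. Of the 36, Fcrl1 and Was passed the count filter only through the positive fraction, and among the 53 genes that passed it in both groups 34 were higher and 8 lower, with a median of 0.75. In the Aldh1l1-NuTRAP mice 50 could be tested, and 17 were higher and 19 lower in the positive than in the negative fraction, beside 26.8% and 24.8% of all genes tested. Of the 19 lower genes, 12 passed the filter only through the negative fraction, where they were high, and among the 36 genes that passed it in both fractions 16 were higher and 7 lower.

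Among other Fc receptors and receptor-like genes, 4 of 5 tested were higher over input and 0 lower, or 3 of 4 without Fcrl1, which passed the count filter only through the positive fraction. Fcrls, a microglial receptor-like gene, was at 284 ± 122 CPM against 19.3 ± 2.21 CPM (SD, n = 6; log2 fold change 3.90 ± 0.25, SE). Fcgrt, the neonatal Fc receptor that carries immunoglobulin G inside cells, rose by only 1.05 ± 0.12 and, unlike the members, was also higher in the Aldh1l1-NuTRAP positive fraction, at 82.6 ± 15.7 against 22.5 ± 7.91 CPM (SD, n = 3; log2 2.23 ± 0.29, SE, adjusted p = 0.000766). Trim21, the cytosolic Fc receptor, had a log2 fold change over input of 0.33 ± 0.20 (adjusted p = 0.191). Tyrobp, the only other adaptor with such an activation motif that could be tested, was at 143 ± 60.6 CPM against 9.63 ± 0.826 CPM (log2 3.92 ± 0.25), close to Fcer1g.

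Of 6 Src family kinases tested, 2 were higher and 2 lower over input. Yes1 was the lowest (-0.38 ± 0.09, log2, SE). Lyn, picked out after its values were seen, was at 69.6 CPM in the positive fraction and 14.3 CPM in the input (2.31 ± 0.16), and it was also higher in the Aldh1l1-NuTRAP positive fraction (1.52 ± 0.26, adjusted p = 0.00252).

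Of the paralogs of the downstream members only Tec, of 3 that could be tested, was called over input. Plcg1, the phospholipase of many cell types, was at 80.4 ± 36.5 CPM in the positive fraction and 72.4 ± 6.98 CPM in the input, and its log2 fold change of 0.17 ± 0.25 (adjusted p = 0.590) had a 95% interval below that of Plcg2. Zap70, the lymphocyte relative of Syk, was at 3.01 ± 0.660 against 2.17 ± 0.580 CPM (0.50 ± 0.20, adjusted p = 0.0517), past the threshold without mouse 194 (0.71, adjusted p = 0.0121). It was also called with DESeq2 (0.53, adjusted p = 0.0314) and with RLE scaling in edgeR (0.52, adjusted p = 0.0425), so its missing call depends on the method. Tec rose by 1.85 ± 0.20, from 3.15 ± 0.632 to 11.1 ± 3.41 CPM. Bmx (1.39 ± 0.730 against 0.578 ± 0.202 CPM) and Txk (0.141 ± 0.136 against 0.131 ± 0.0568 CPM, SD, n = 6) were too low to be tested.

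Further down, 8 of 9 adaptors tested were higher over input and 1 lower, with Lat2 the highest (3.12 ± 0.19) and Cbl, a ubiquitin ligase, the lowest (-1.10 ± 0.26). Cbl did not differ from the negative fraction (0.05 ± 0.27, adjusted p = 0.920), which was itself below the input for Cbl (-1.13 ± 0.29, adjusted p = 0.0418). Of 8 genes of the phosphoinositide 3-kinase branch, 4 were higher and 2 lower, from Pik3ap1 (3.11 ± 0.20) to the regulatory subunit Pik3r1 (-0.25 ± 0.06). Pik3r1 was not called with all groups in 1 fit (-0.22, adjusted p = 0.0543). Of 9 inhibitors tested, 6 were higher and 2 lower, from the phosphatase Ptpn6 (3.68 ± 0.21) to Cblb (-0.33 ± 0.09, called lower except without mouse 194, when the adjusted p was 0.0526). Of 10 genes for exchange factors and actin, 7 were higher and 1 lower, from Hcls1 (4.08 ± 0.23) to Vav3 (-0.36 ± 0.11). Vav3 was not called without mouse 192 (-0.29, adjusted p = 0.0720) or 277 (-0.31, adjusted p = 0.0611), nor with all groups in 1 fit (-0.33, adjusted p = 0.0606). Of 5 genes around protein kinase C and Card9, 3 were higher and 0 lower, from Card9 (2.91 ± 0.25) to Prkcb (-0.13 ± 0.07, adjusted p = 0.131), all on the log2 scale with SE.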

How the data were processed

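RNA from 29 libraries of 9 mice was sequenced as directional, poly(A)-selected paired-end libraries. Reads were trimmed, aligned directionally to mm10 and quantified by the authors in Strand NGS, and normalization in the study used DESeq. How reads that fit several genes were counted is not given in the sources used here. The deposited values are expected counts per gene (36172 rows), of which 81.4% of those above 0 were not whole (tolerance 0.001), so they were rounded. The deposited log2 columns, DESeq-normalized by the authors and set to a baseline per gene, were not used for any value here. All columns used were matched to a sample and 0 columns were without one. Total counts per library ranged from 4260949 to 26857866, and intervals on counts cover counting error only.

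Groups followed the labels. A gene was tested where every library of 1 or more of the compared groups held over 20 counts, with edgeR 4.0.16 in R 4.3.3 (TMM scaling, robust quasi-likelihood test, two-sided, Benjamini-Hochberg over all genes tested, threshold 0.05). The fit was tested on simulated data. CPM used library totals, log2 CPM a prior count of 2, and levels per kb merged exons of GENCODE on GRCm38. Promoters came from RefSeq (GRCm38.p6). The microglia list came from the study's supplementary lists (239 genes).

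Libraries with one mouse number came from the same animal. Deviations from the group means correlated above 0.1 in 3 of 6 mice for positive and negative fractions of Cx3cr1-NuTRAP, 3 of 6 for positive fraction and input, 0 of 5 for positive fraction and whole tissue, 5 of 6 for negative fraction and input, 4 of 5 for negative fraction and whole tissue, 0 of 5 for input and whole tissue, and 3 of 3 in Aldh1l1-NuTRAP. Alternatives were DESeq2 1.42.0, other scaling, no filter, all groups in 1 fit, a replicate block, and each mouse left out. The genes named were the 8 members, the highest and lowest gene over input of each pathway list, the direct paralogs, Fcgrt, Fcrls and Tyrobp, both driver genes, and the 3 genes most correlated with each member. A few genes that this rule names are not reported here. The members and lists were chosen with earlier results of these data known.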

Additional observations from a re-analysis of the deposited data

Results flagged for a closer look

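In the Cx3cr1-NuTRAP positive fraction the library of mouse 194 stood far above the other 5 for 6 genes: Fcgr1 at 76.0 CPM (next highest 45.0), Fcgr2b at 47.4 (27.6), Fcgr3 at 277 (150), Syk at 46.2 (29.1), Plcg2 at 45.9 (30.5) and Btk at 24.0 (14.3). In whole tissue the library of mouse 210, the one with the fewest counts, stood apart for Fcgr3 at 22.0 CPM (11.6). These are 7 of 32 combinations of gene and group examined, where chance alone picks out about 1 in 20, and the 8 genes share their libraries. The 8 members were called over input with mouse 194 left out as well.

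The log2 ratio of positive to negative fraction differed between the lines for each member, tested as an interaction in edgeR. The difference, Cx3cr1-NuTRAP minus Aldh1l1-NuTRAP, was 6.46 for Fcgr3 (adjusted p = 1.45e-09), 6.25 for Fcer1g (3.33e-09), 6.19 for Fcgr1 (1.81e-08), 5.54 for Btk (4.12e-07), 4.84 for Fcgr2b (1.17e-08), 4.60 for Fcgr4 (0.00275), 3.30 for Syk (1.09e-06) and 2.67 for Plcg2 (2.11e-05). Fcgr4 and Btk passed the count filter only through the Cx3cr1-NuTRAP positive fraction, where they were high, and rested on 4 and 13 counts in the Aldh1l1-NuTRAP positive fractions.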

How the results depend on the processing

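Of 718 values of the members' log2 fold changes under alternatives, 703 kept direction and call, 4 lost the call and 11 changed sign. All 8 members stayed called in every alternative of the Cx3cr1-NuTRAP positive fraction against input, negative fraction, whole tissue and the Aldh1l1-NuTRAP positive fraction, and in the difference between lines. With all mice, Fcgr4 and Btk passed the filter only through the Cx3cr1-NuTRAP positive fraction in its comparisons with input and negative fraction and in the difference between lines. The same held for these 2 with Fcgr2b, Syk and Plcg2 against whole tissue, and for these 2 with Fcer1g, Fcgr1, Fcgr2b and Fcgr3 against the Aldh1l1-NuTRAP positive fraction, so that their calls there are a description. The 4 lost calls were in the Aldh1l1-NuTRAP mice, where 2 to 5 members were called without 1 mouse against 4 with all. The fifth was Btk, which passed the filter only without mouse 290. The sign changes were all in uncalled values. Without 1 mouse, Fcer1g ran from -0.02 to 0.06 between negative fraction and input (-0.01 without 194, -0.02 without 210) and Fcgr3 from -0.12 to 0.03 (without 155). Between input and whole tissue Fcer1g ran from -0.09 (without 192) to 0.14 (-0.03 without 277), Fcgr1 from -0.02 (without 192) to 0.18 and Fcgr3 from -0.24 to 0.16 (without 210). In the Aldh1l1-NuTRAP mice Plcg2 ran from -0.31 (without 293) to 0.39 (-0.08 without 290), and was -0.02 with all groups in 1 fit and -0.32 with library totals. The other named genes had 432 such values, over input and in the Aldh1l1-NuTRAP mice. Of these, 398 kept direction and call, 17 lost the call, 14 gained it and 3 changed sign. Plcg1 over input ran from -0.05 (without 155) to 0.32, and in the Aldh1l1-NuTRAP mice Plcg1 ran from -0.26 to 0.01 (without 290) and Cbl from -0.90 to 0.07 (without 294). The cause was not tested.

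Counts over all genes moved more. Between negative fraction and input, 840 genes became 2050 with DESeq2, 59 with all groups in 1 fit, 281 without a filter, 5115 with the replicate block and 0 to 3815 without 1 mouse. Between input and whole tissue, 4144 became 2458 with all groups in 1 fit and 2549 to 5395 without 1 mouse. Without 1 mouse, 3352 between positive and negative fraction became 1747 to 4273, and 6868 in the Aldh1l1-NuTRAP mice became 3587 to 9731. With mouse pairing as a replicate block the count of members called stayed at 8, 8, 8, 0, 0, 4 and 8 in the comparisons that allow it, and it changed no other call of a member. With library totals as the scale, the share of called genes that were higher went from 52.0% to 33.6% in the Aldh1l1-NuTRAP mice, from 52.0% to 68.7% between positive fractions and from 53.9% to 68.7% for the difference between lines. Members above the microglia list in every mouse went from 6 to 3 with the 10 markers. Depth limits Fcgr4 and Btk outside the Cx3cr1-NuTRAP positive fraction.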
